A study of Solanum lycopersicum with 6 samples.

Results

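Distal intergenic regions that were more methylated in the CHH context in embryos of a tomato Pol IV mutant, and that shared no base with a region of higher CHG methylation, are described here. They are called the CHH-only gains. They were chosen by the deposited genotype means, annotation and overlap in the authors' lists of differentially methylated regions. The nrpd1 mean of a CHH region exceeded the wild-type mean, its annotated feature was distal intergenic, and no listed CHG region with a higher nrpd1 mean touched it. This left 2619 regions out of 132092 listed in all contexts. CHH regions numbered 76805, of which 4.15% were higher in nrpd1, and of the 45201 distal CHH regions 6.53% were higher. These percentages are shares of regions already called, because regions that did not differ are not listed, and nothing is read from them since the same contrast chose the regions.

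The nrpd1 group had 3 bisulfite libraries of embryos carrying an SlNRPD1 knockout, and the wild-type group had 3 libraries of wild-type embryos. Both were of the dwarf cultivar Micro-Tom and were taken 21 days after flowering, with no further treatment named. The labels name neither the mutant allele nor the number of embryos or plants behind a library. Each region carries 1 deposited mean per genotype, so read depth is unknown, no spread between libraries can be given and no test between samples could be made. Tissue identity could not be checked, as only methylation was measured.

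Plant cytosines are methylated in 3 contexts, CG, CHG and CHH, where H is A, C or T. RNA polymerase IV, whose catalytic subunit is NRPD1, makes the precursors of small RNAs that guide DRM-type methyltransferases to matching DNA (RNA-directed DNA methylation). In other plants, Arabidopsis among them, chromomethylases also methylate CHG and CHH cytosines in heterochromatin, guided by a histone mark on the nucleosomes and not by small RNAs. CHH methylation is therefore a readout of more than 1 pathway, and its loss is the usual change in Pol IV mutants.

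CHH-only gains were regions of intermediate CHH methylation that were about 10 points higher in nrpd1. Their median level was 25.5% in nrpd1 and 14.4% in wild type, and the central 80% of regions lay between 21.9% and 31.9% in nrpd1 and between 10.9% and 19.7% in wild type. Over the whole class, levels ran from 15.3% to 52.0% in nrpd1 and from 4.13% to 37.5% in wild type. Weighted by the 161783 CHH cytosines they contain, the mean level was 25.8% in nrpd1 and 14.7% in wild type. The median difference was 10.8 points, and the median region had 1.76 times its wild-type level. Since these values chose the regions, they are a description only.

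Differences were crowded against the smallest value in the list. Of the CHH-only gains, 1517 (57.9%) differed by less than 11 points, 562 (21.5%) by at least 12, 124 by at least 15 and 22 by at least 20. The regions just inside the limit differed by 10.0003, 10.0006 and 10.0012 points, and the distal losses nearest to it on the other side differed by -10.0000, -10.0005 and -10.0010 points. No region between those values is listed. A doubling of CHH methylation or more was seen in 378 CHH-only gains (14.4%).

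**Figure D1:**
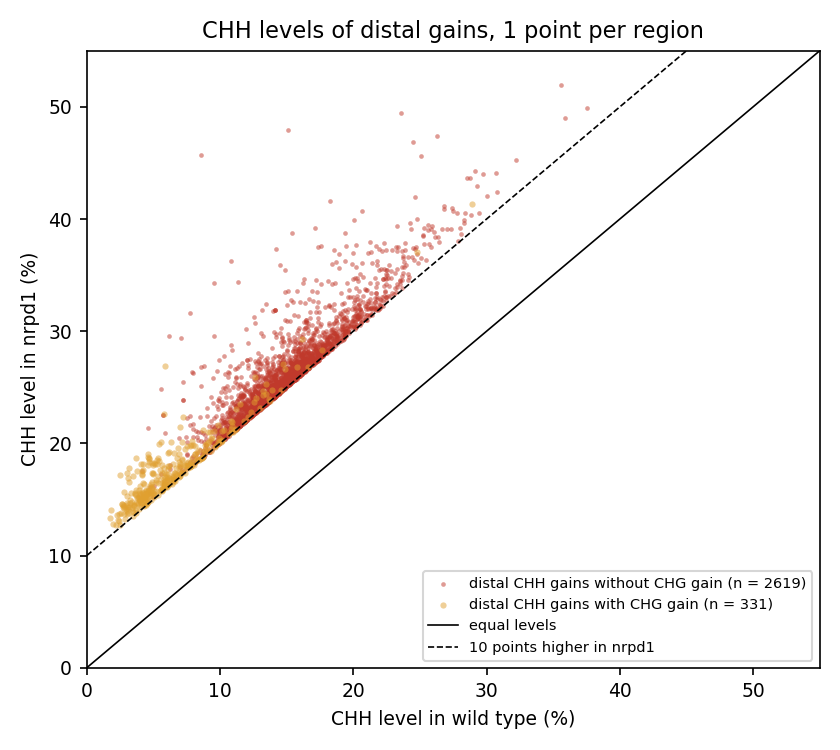
Scatter of the authors' mean CHH level in nrpd1 (vertical axis, percent) against that in wild type (horizontal axis, percent) for each distal CHH gain, 2619 without and 331 with an overlapping CHG gain. Most points lie just above the dashed line, which marks 10 points more in nrpd1, and those without CHG gain centre at a wild-type level of 14.4%, against 5.79% for those with one.

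The other distal CHH gains, 331 regions that shared at least 1 base with a CHG gain, started from less methylation. Their median level was 17.2% in nrpd1 and 5.79% in wild type. The CHH-only gains had the higher wild-type median on each of the 12 chromosomes, by 8.61 points ± 1.20 (SD over chromosomes). Chromosomes are parts of 1 genome in the same libraries and not replicates, so such counts describe how evenly a pattern is spread. The median differences were 10.8 points in the CHH-only gains and 10.96 points in the coinciding gains. Both lie just above the smallest listed difference of 10 points, so their closeness is not read as a result. Distal CHH losses, the class listed most often in intergenic sequence, had a median level of 8.61% in nrpd1 and 25.2% in wild type. The nrpd1 level of the CHH-only gains was close to the wild-type level of the losses. These levels chose the classes, so nothing is read from this.

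The rule left out every region that touched 1 of the 5074 CHG gains (of 42277 listed CHG regions). A CHG gain was within 200 bp of 17 CHH-only gains (0.649%) and 0.542% of distal losses, and within 1 kb of 56 CHH-only gains (2.14%, Wilson 95% interval 1.65 to 2.77) and 1.48% of distal losses. Within 5 kb the order was reversed, with 4.85% of CHH-only gains and 4.95% of distal losses. The rule removed touching CHH gains only, and 0.213% of distal losses shared a base with a CHG gain. The median distance to one was 74958 bp for CHH-only gains and 98872 bp for distal losses, and the CHH-only median was the smaller on 11 of 12 chromosomes. The closest was at chromosome 12, 40267794 to 40268116, at 11 bp from a CHG gain, with CHH levels of 18.3% in nrpd1 and 8.18% in wild type. On chromosome 7, 18497418 to 18497518 lay at 20 bp, and on chromosome 5, 60710081 to 60710261 lay at 37 bp. Just outside the class, the gain at chromosome 7, 7803003 to 7803299 shared 11 bases with a CHG gain and had levels of 24.7% in nrpd1 and 13.9% in wild type, values near the CHH-only medians. The next smallest overlaps, on chromosomes 5 and 9, were 14 and 18 bases.

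CHH-only gains were short and rich in CHH cytosines. Their median width was 175 bp (95% interval of the median 166 to 184, counting error only), against 831 bp in coinciding gains and 616 bp in distal losses. The median region held 48 CHH cytosines, against 221 in coinciding gains and 140 in losses. Regions narrower than 100 bp made up 26.9% of the CHH-only gains, 1.51% of the coinciding gains and 1.59% of the losses. In all, the CHH-only gains covered 570 kb, compared with 329 kb for the far fewer coinciding gains. Widths result from the authors' region calling, and a wide region has more bases that can meet a CHG gain. Among distal CHH gains, the share meeting a CHG gain was 0.705% below 100 bp, 1.19% from 100 bp, 3.53% from 200 bp, 26.6% from 400 bp and 93.1% from 800 bp, each class ending where the next begins. How far width sets the membership was not tested.

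Levels of the classes were also compared at like widths. Below 100 bp, the 704 CHH-only gains had medians of 26.2% in nrpd1 and 14.7% in wild type, and the 5 coinciding gains had higher ones, 26.8% in nrpd1 and 16.6% in wild type. From 200 bp to under 400 bp, the 847 CHH-only gains had 25.1% in nrpd1 and 14.1% in wild type, and the 31 coinciding gains 18.6% in nrpd1 and 7.58% in wild type. From 400 bp to under 800 bp, the 307 CHH-only gains had medians of 24.6% in nrpd1 and 13.7% in wild type, and the 111 coinciding gains 18.03% in nrpd1 and 6.56% in wild type. At 800 bp or more there were 13 CHH-only gains, with a wild-type median of 12.9%, and 175 coinciding gains, with 4.80%.

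Density of CHH cytosines set the CHH-only gains apart from the losses more than from the coinciding gains. The median was 291 CHH cytosines per kb of region, against 274 in coinciding gains and 223 in losses. It was higher than in losses on 12 of 12 chromosomes, by 69.3 per kb ± 8.09, and higher than in coinciding gains on 11 of 12, by 17.7 ± 9.86 (SD over chromosomes). Among the listed distal CHH regions with 350 or more CHH cytosines per kb, 346 of 463 (74.7%, Wilson 95% interval 70.6 to 78.5) were CHH-only gains. From 300 to under 350 per kb the share was 44.8%, and from 200 to under 250 per kb it was 1.65%. Below 200 per kb it was 3.46%, above that of the next class. The share was also taken at like widths. Below 100 bp, 62.9% of regions were CHH-only gains at 300 per kb or more and 44.3% below 250 per kb, and from 100 bp to under 200 bp these shares were 58.7% and 21.4%. Of regions 200 bp to under 400 bp wide, 55.3% were CHH-only gains at 300 per kb or more and 4.51% below 250 per kb. For regions of 400 bp or more the same shares were 27.0% and 0.176%. At the low end, 380 CHH-only gains had fewer than 200 CHH cytosines per kb, with a median width of 98.5 bp.

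**Figure D2:**
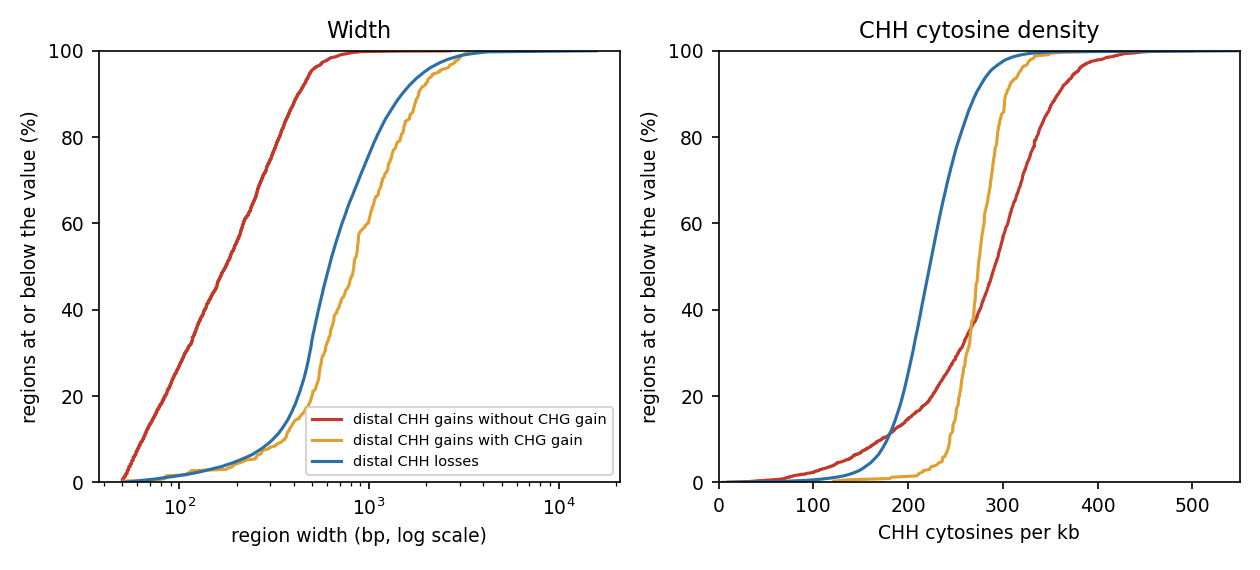
Cumulative percent of regions (vertical axes) at or below a given width in bp on a log axis (left) and a given number of CHH cytosines per kb (right), for CHH-only gains, coinciding gains and distal losses. The CHH-only gains lie far to the left in width, with a median of 175 bp, and reach the highest densities, with a median of 291 per kb.

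Position in the genome also differed. CHH-only gains lay a median of 27346 bp from the transcription start of the gene the authors assigned (interval 25601 to 29162), against 23823 bp for coinciding gains and 5642 bp for distal losses. Starts were beyond 30 kb for 47.2% of CHH-only gains, 42.6% of coinciding gains and 9.74% of losses. CHH-only gains were farther than losses on 12 of 12 chromosomes and farther than coinciding gains on 10 of 12. The interval of the coinciding median, 18378 to 28982, included the CHH-only median. Starts were beyond 100 kb for 15.2% of CHH-only gains and 15.7% of coinciding gains. The distance thus set CHH-only gains apart from losses but not clearly from coinciding gains. The share upstream of the assigned start was 57.2% for CHH-only gains and 55.9% for losses.

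The farther from a gene, the larger was the part of listed distal CHH regions that were CHH-only gains. They made up 1.11% of such regions within 5 kb of the start (212 of 19179), 2.88% at 5 to 10 kb, 8.86% at 10 to 30 kb, 20.3% at 30 to 100 kb and 29.3% beyond 100 kb (398 of 1359). On single chromosomes the share ran from 0.634% to 1.75% within 5 kb and from 22.2% to 40.0% beyond 100 kb, so the 2 ranges did not overlap. The order of the 5 distance classes was the same in the middle 60% of the chromosomes, with 1.71% within 5 kb and 30.4% beyond 100 kb, and in the outer 20% at either end, with 0.824% and 21.9%. These shares move with the losses, which numbered 18931 within 5 kb and 909 beyond 100 kb. Coinciding gains rose likewise, with 36 of 19179 within 5 kb and 52 of 1359 beyond 100 kb. Of the distal gains, 14.5% were coinciding within 5 kb and 11.6% beyond 100 kb. The gradient was therefore not particular to the CHH-only gains. How much sequence of each distance class could be assayed is not known.

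Both genotypes had lower levels in CHH-only gains far from genes. Within 5 kb of the start the median was 28.1% in nrpd1 and 16.6% in wild type, at 10 to 30 kb it was 26.2% in nrpd1 and 14.997% in wild type, and beyond 100 kb it was 23.8% in nrpd1 and 12.8% in wild type. The level near genes was the higher on 12 of 12 chromosomes, by 4.67 points ± 1.72 in nrpd1 and 4.09 points ± 1.32 in wild type (SD over chromosomes). In coinciding gains, compared on 8 chromosomes, it was higher on 6 in nrpd1, by 0.921 points ± 1.47. In wild type it was higher on 5 of the 8, by 1.05 points ± 1.96. In distal losses the wild-type median was also higher within 5 kb, with 25.5% against 23.2% beyond 100 kb, but the nrpd1 median was lower within 5 kb, with 8.03% against 9.23%. The median difference of the CHH-only gains was 10.98 points within 5 kb and 10.6 beyond 100 kb. Only differences of at least 10 points are listed, and 57.9% of CHH-only gains differed by less than 11. For most of them the level in 1 genotype therefore nearly fixes that in the other. The lower levels in nrpd1 and in wild type are thus 1 pattern, described on values that the rule used.

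**Figure D3:**
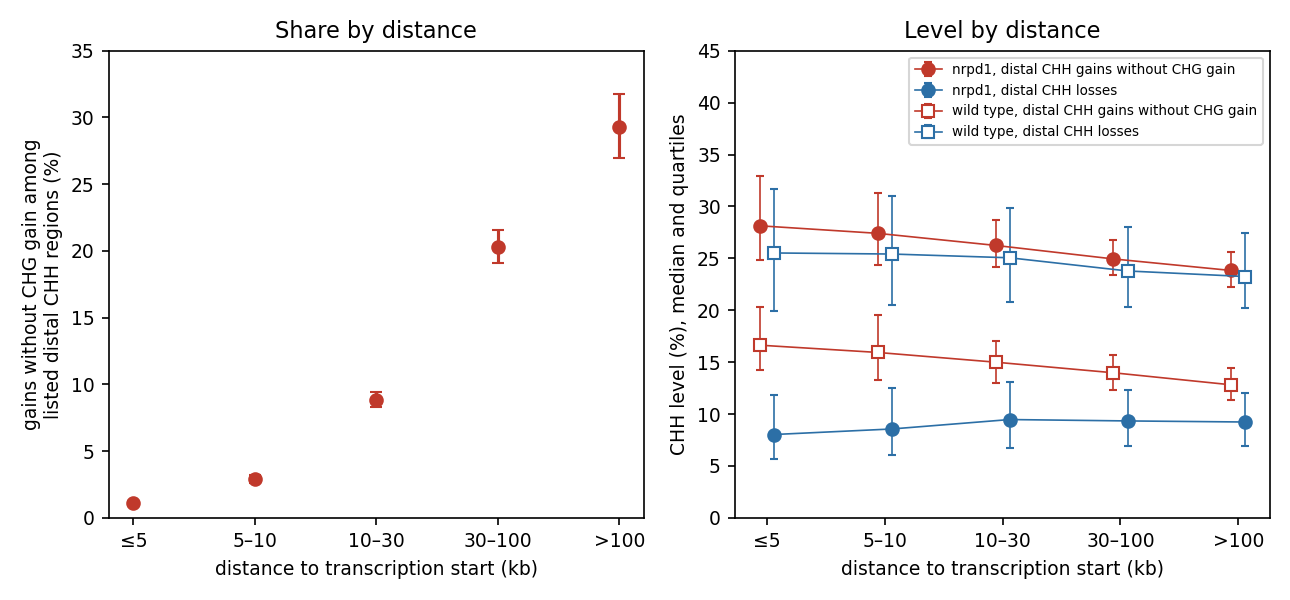
Left, CHH-only gains as percent of all listed distal CHH regions by distance to the transcription start in kb, with Wilson 95% intervals. Right, median CHH level in percent with quartiles for CHH-only gains and distal losses in nrpd1 (filled) and wild type (open). The share is 1.11% within 5 kb and 29.3% beyond 100 kb, and CHH-only gains have lower levels in both genotypes at longer distances.

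Along the chromosomes, the CHH-only gains filled the interior and thinned out at the ends. On the 12 numbered chromosomes, 70.1% had their midpoint in the middle 60% (Wilson 95% interval 68.3 to 71.9), against 72.7% of coinciding gains and 38.7% of distal losses. The CHH-only share exceeded that of the losses on 11 chromosomes. The exception was chromosome 2, with 54.97% of CHH-only gains and 69.3% of losses in the middle. When each chromosome was cut into 10 equal segments, CHH-only gains had 1.93 per Mb in segment 1, 4.65 in segment 3 and 0.854 in segment 10. Distal losses had 96.5 per Mb in segment 1, 24.1 in segment 3 and 92.1 in segment 10. The 66 CHH-only gains of segment 10 had the highest medians of the 10 segments, 33.4% in nrpd1 and 19.96% in wild type, and those of segment 3 had 24.6% in nrpd1 and 13.7% in wild type.

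**Figure D4:**
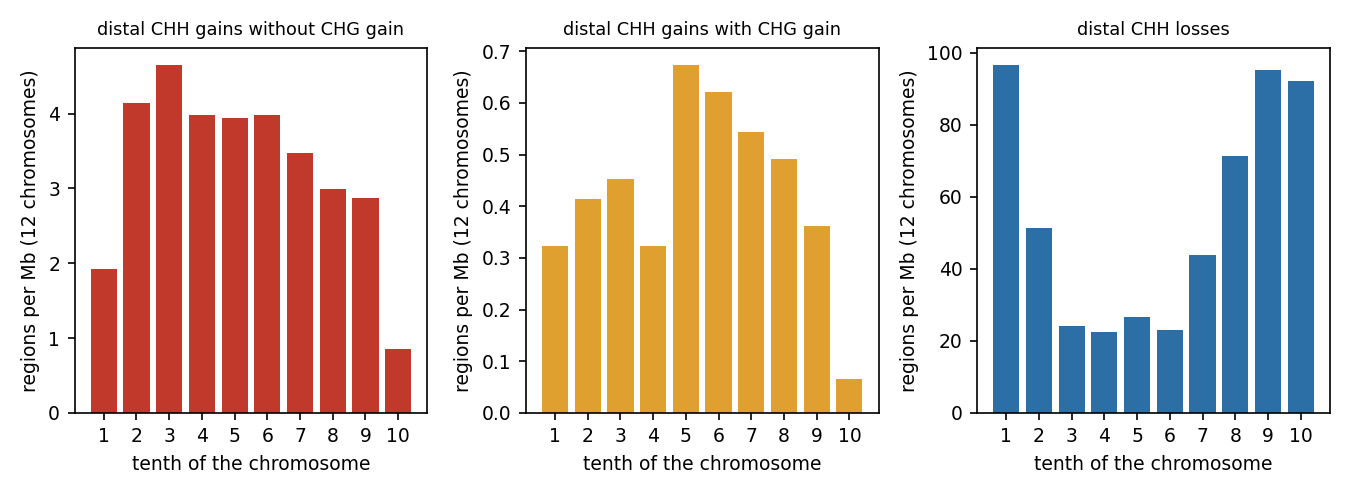
Regions per Mb (vertical axes, each with its own scale from 0) in 10 equal segments of the chromosomes, pooled over 12 chromosomes, for CHH-only gains, coinciding gains and distal losses. CHH-only gains peak at 4.65 per Mb in segment 3, whereas losses are densest at the ends.

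All 12 chromosomes carried CHH-only gains, from 151 on chromosome 2 to 292 on chromosome 5, or 2.56 per Mb on chromosome 1 to 4.48 on chromosome 5. As a share of listed distal CHH regions they ran from 4.32% on chromosome 1 to 8.52% on chromosome 12. Median levels by chromosome spanned only 24.8% to 26.2% in nrpd1 and 14.0% to 15.2% in wild type. Unplaced sequence, listed as chromosome 0, stood apart: 84 of its 128 distal CHH regions (65.6%, Wilson 95% interval 57.05 to 73.3) were CHH-only gains, and 114 of its 167 CHH regions were gains. Its CHH-only gains had medians of 24.8% in nrpd1 and 13.2% in wild type, the wild-type value being lower than on any numbered chromosome, a median difference of 11.3 points and a density of 243 CHH cytosines per kb. How reads were placed on this sequence is not given in the sources used here.

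Listed CG changes and CHG losses were sparser around CHH-only gains than around distal losses. A CG gain lay within 1 kb of 25 CHH-only gains (0.955%, Wilson 95% interval 0.647 to 1.41), against 41.7% of coinciding gains (36.5 to 47.1) and 3.28% of distal losses. Of all listed CG regions, 32.3% were gains. From 400 bp to under 800 bp, where widths are more alike, the share was 2.28% for CHH-only gains (7 regions), 39.6% for coinciding gains and 3.22% for distal losses. At 5 to 10 kb from a start, it was 2.56% for CHH-only gains and 2.80% for distal losses. Beyond 100 kb these shares were 0.503% and 7.15%. Nearness to CG and CHG losses was not compared at like widths or distances. CG losses lay within 5 kb of 65 CHH-only gains (2.48%), 3.32% of coinciding gains and 26.9% of distal losses. None of the CHH-only gains and none of the coinciding gains shared a base with a CG or CHG loss. Of distal losses, 4.14% shared a base with a CG loss and 29.9% with a CHG loss. A CHG loss lay within 5 kb of 6.87% of CHH-only gains, 14.8% of coinciding gains and 70.7% of distal losses.

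Only 5 CHH-only gains shared a base with a CG gain, named here after their values were seen. At chromosome 5, 53200667 to 53200931, CHH was 20.4% in nrpd1 and 9.32% in wild type, and CG was 86.2% in nrpd1 and 50.1% in wild type. The others were at chromosome 7, 10371521 to 10371898, chromosome 9, 17294802 to 17294882, chromosome 10, 5954947 to 5955353 and chromosome 12, 7131919 to 7132126. In these 4, CG ranged from 90.1% to 93.8% in nrpd1 and from 74.4% to 79.1% in wild type.

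CHH losses were also sparse nearby. A listed CHH loss lay within 1 kb of 44 CHH-only gains (1.68%), 14.5% of coinciding gains and, counting other losses only, 65.3% of distal losses. The median distance to the nearest CHH loss was 26390 bp for CHH-only gains, 11153 bp for coinciding gains and 636 bp from one loss to the next. For 1227 CHH-only gains (46.8%, Wilson 95% interval 44.9 to 48.8) the nearest listed CHH region was another gain. This share was 25.7% for coinciding gains and 1.46% for distal losses, and on single chromosomes it ran from 33.5% to 56.5% for CHH-only gains. Gains were 4.15% of all listed CHH regions, which is not the local share. Of listed distal CHH regions, 248 of 19179 were gains within 5 kb of a start and 450 of 1359 beyond 100 kb. A CHH gain lay within 200 bp of 9.47% of CHH-only gains.

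About 1 in 4 CHH-only gains had another within 10 kb, 674 regions or 25.7%. A CHH-only gain lay within 10 kb of 10.3% of coinciding gains, and another CHH loss within 10 kb of 95.5% of distal losses. For 332 CHH-only gains the other lay within 1 kb, and for 246 within 200 bp. Whether such neighbours are parts of 1 stretch split by the region calling was not tested. The 674 regions formed 288 groups when chained by gaps of at most 10 kb, of which 229 were pairs and 59 had 3 or more regions. The group with the most regions and cytosines held 9 CHH-only gains in 43.1 kb of chromosome 3, 12441782 to 12484874. Levels in it ran from 23.9% to 27.5% in nrpd1 and from 13.3% to 16.4% in wild type. The span contained 1 CG gain and no other listed region besides the 9.

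Another 9 lay in 22.9 kb of chromosome 12, 35559411 to 35582332, with 20.9% to 42.0% in nrpd1 and 9.92% to 24.7% in wild type. The widest of these, 890 bp at 35575789 to 35576678 with 237 cytosines, had 42.0% in nrpd1 and 24.7% in wild type. A group of 7 followed after 27.7 kb, at 35609995 to 35627922, named after its values were seen. The third group, 8 CHH-only gains in 30.8 kb of chromosome 3 at 20807313 to 20838077, had 24.5% to 31.1% in nrpd1 and 14.1% to 20.3% in wild type. No other listed region of any context lay in the chromosome 12 group of 9 or in the group of 8.

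**Figure D5:**
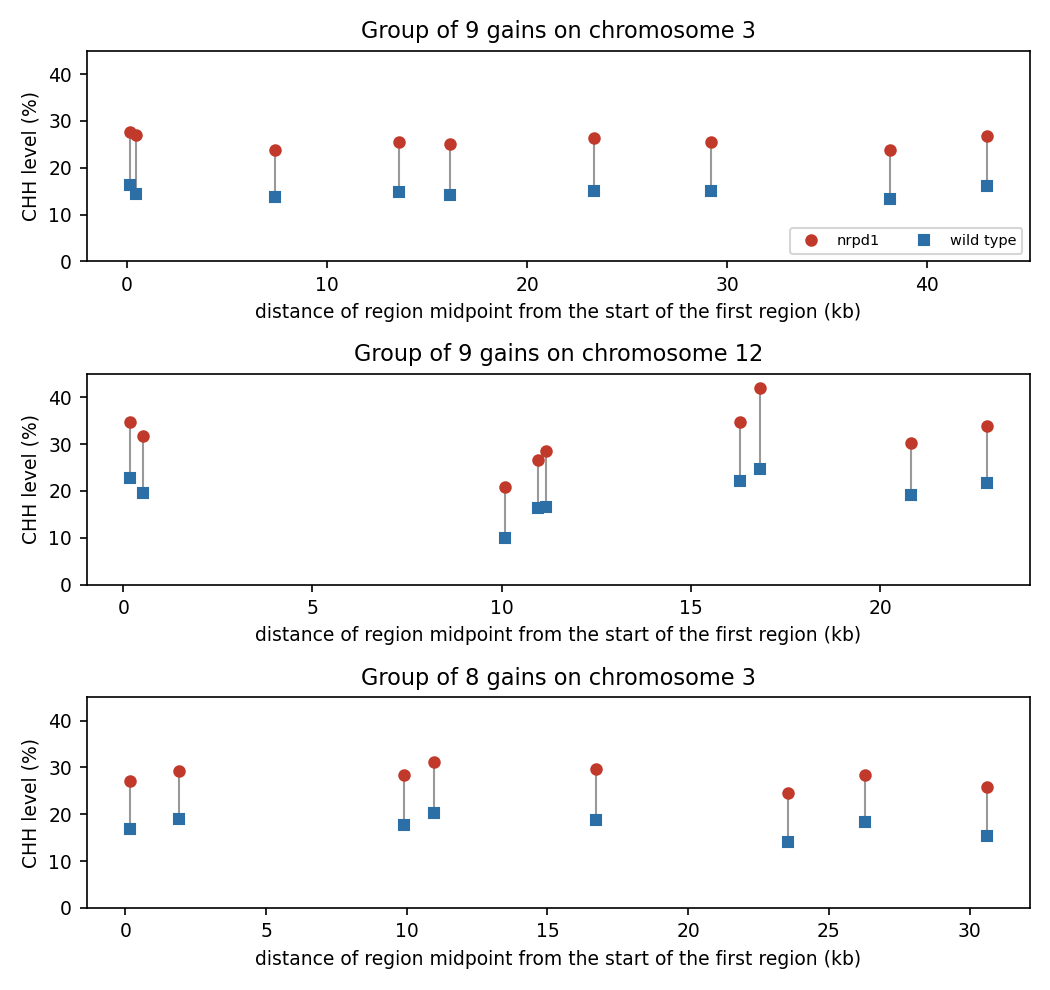
CHH level in percent in nrpd1 (circles) and wild type (squares) for each CHH-only gain of the 3 groups with the most regions, against the distance in kb from the start of the first region. Grey lines join the 2 genotypes of a region. In the upper group levels stay between 23.9% and 27.5% in nrpd1 and between 13.3% and 16.4% in wild type over 43.1 kb.

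Larger differences came with smaller, more gene-proximal regions. The 124 CHH-only gains that differed by 15 points or more had a median width of 128 bp, 24 cytosines and 200.0 cytosines per kb, against 189 bp, 56 and 303 per kb for the 1517 that differed by under 11 points. They lay a median of 13830.5 bp from a transcription start (interval 10959 to 18769), against 32517 bp (29606 to 34907) below 11 points. Their share in the middle of the chromosome was 50.9% (41.7 to 60.1), against 73.8% (71.5 to 75.9), and 11.3% of them were on unplaced sequence, against 2.24%. Their wild-type median was 14.98%, against 14.2% below 11 points. Another CHH-only gain of any size lay within 10 kb of 40.3% of them, against 19.4% below 11 points. Fewer than 20 cytosines supported 41.9% of the regions with 15 points or more and 10.7% of those below 11 points, and the part of this in the larger differences was not tested.

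The 10 CHH-only gains with the largest differences held 8 to 42 cytosines each. The first, 169 bp at chromosome 7, 41529902 to 41530070, had 17 cytosines and levels of 45.7% in nrpd1 and 8.55% in wild type, 5.35 times higher. Its assigned start was 189 kb away. At chromosome 2, 14420398 to 14420481, levels were 47.9% in nrpd1 and 15.1% in wild type over 9 cytosines. A 99 bp region of chromosome 6, 29877726 to 29877824, had 49.4% in nrpd1 and 23.6% in wild type over 25 cytosines, at 4189 bp from a start. The fourth, on chromosome 3 at 37184278 to 37184569, held 42 cytosines and had 36.3% in nrpd1 and 10.9% in wild type.

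The remaining 6 differed by 23.1 to 24.8 points. They were at 17241167, 52921126, 61417352 and 6220609 on chromosome 5, at 43539297 on chromosome 10 and at 61915258 on chromosome 9 (start positions). The regions at 61417352 and 6220609 lay 422 and 713 bp from a CHH loss.

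By level in nrpd1, the highest was 52.0% at chromosome 7, 41616258 to 41616365, with 35.6% in wild type and a CG gain 507 bp away. The second was 369 bp with 120 cytosines at chromosome 3, 62972292 to 62972660, with 49.9% in nrpd1 and 37.5% in wild type, the highest wild-type level of the class. Chromosome 2, 49324538 to 49324886, had 49.0% in nrpd1 and 35.9% in wild type over 88 cytosines, 988 bp from a start. The chromosome 6 and chromosome 2 regions with large differences completed the first 5. Only 7 CHH-only gains (0.267%) had 30% or more in wild type, against 11761 distal losses (27.8%), a level that the rule itself used.

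The best-supported CHH-only gains by number of cytosines were much wider. One of 2482 bp at chromosome 8, 57064378 to 57066859, held 625 CHH cytosines and had 37.7% in nrpd1 and 20.2% in wild type, a difference of 17.5 points, 6336 bp from a start. The widest, 2699 bp at chromosome 10, 3926363 to 3929061, held 561 cytosines, with 27.8% in nrpd1 and 16.1% in wild type. Next by cytosines were 328 at chromosome 11, 38137909 to 38138983 (20.1% in nrpd1, 9.63% in wild type), 324 at chromosome 4, 37447686 to 37448899 (17.6% in nrpd1, 7.13% in wild type), and 297 at chromosome 8, 4697094 to 4697919 (24.7% in nrpd1, 14.4% in wild type). The chromosome 4 region lay 504 bp from a CHG gain. The third widest, 1470 bp of unplaced sequence at 1090578 to 1092047, held just 24 CHH cytosines, with 24.1% in nrpd1 and 12.6% in wild type.

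The nearest to a start was at chromosome 8, 46780026 to 46780295, at 317 bp, with 23.7% in nrpd1 and 13.6% in wild type. The other 4 nearest, 2 of them on chromosome 11, were 537 to 842 bp away, with 24.3% to 44.3% in nrpd1 and 12.3% to 29.2% in wild type. The highest of these, at chromosome 11, 4461815 to 4462276, was above the central 80% of the class in both genotypes. All 5 lay downstream of the start in the authors' annotation. Farthest was chromosome 3, 34236063 to 34236165, listed at 935 kb from its assigned start, with 24.7% in nrpd1 and 14.4% in wild type. The others of the farthest 5 lay at 495 to 908 kb, 3 of them on chromosome 3 as well.

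The authors assigned the CHH-only gains to 1794 genes, of which 1292 (72.0%) had a single one and 39 had 5 or more. Solyc06g016685.1, at chromosome 6, 10938986 to 10949868, had 14, at 4337 to 112411 bp from its start, with medians of 24.6% in nrpd1 and 13.6% in wild type. Solyc03g046590.3, at chromosome 3, 12393394 to 12414976, had 11, with medians of 25.4% in nrpd1 and 14.4% in wild type. The next 3 genes had 11, 8 and 8. The files give these genes by identifier without names, and assignment at such distances says only which annotated start was used.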

How the data were processed

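Embryo DNA of 3 nrpd1 and 3 wild-type libraries was bisulfite-converted, per the labels' protocols. Trim Galore 0.6.7 and Bismark 0.24.0 are in the submitters' processing notes. The sources used here do not give the region caller, its thresholds, the depth or the annotation tool. Sequence names give build SL4.0. The deposited levels are fractions, 1 mean per genotype, per the file headers, printed here as percentages. The deposited difference and region statistic are scores, the authors' own values. No listed region differed by under 10 points, was narrower than 50 bp or held fewer than 4 cytosines. Region width equals end minus start plus 1.

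Overlaps, distances, medians and shares were computed with Python 3.11.15, pandas 2.3.3, NumPy 2.4.6 and SciPy 1.17.1. Overlap required 1 shared base, and overlap and interval functions were tested on simulated regions. Shares have Wilson 95% intervals and medians order-statistic 95% intervals, both for counting error alone, with regions taken as independent. Chromosome lengths were the furthest listed region ends. Named regions were those with extreme difference, nrpd1 level, width, cytosine number, distance to a start, members per gene or members per group, and those nearest the class boundary. The regions and lists were chosen with earlier results of these data known. Sequence composition was planned and not analysed here, for want of a genome of this build. None of the assigned genes matched the RefSeq table (0 matches).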

Additional observations from a re-analysis of the deposited data

How the results depend on the processing

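Stricter limits on the difference changed the number of CHH-only gains and their medians and shares. Under each stricter limit, only neighbours that also met it were counted within 10 kb. With at least 12 points there were 562, with medians of 28.8% in nrpd1 and 14.9% in wild type, 13.2 points, 133.5 bp, 28 cytosines and 18580.5 bp to a start, 4.27% within 1 kb of a CHH loss and 61.7% in the middle 60%. With at least 15 points, 124 had 32.6% in nrpd1 and 14.98% in wild type, 16.8 points, 128 bp, 24 cytosines, 13830.5 bp, 4.84% near a CHH loss, 50.9% in the middle and 16.1% with another of at least 15 points within 10 kb, although 40.3% had a CHH-only gain of any size there. The 50% of CHH gains with the larger region statistic held 1134, with 24.9% in nrpd1 and 14.0% in wild type, 10.6 points, 321.5 bp, 95 cytosines, 31474 bp, 1.15% near a CHH loss, 75.5% in the middle and 10.6% with another within 10 kb. Requiring 20 cytosines gave 10.7 points, 211 bp, 60 cytosines and 19.9% with another within 10 kb. A minimum width of 400 bp, chosen after seeing the data, left 320, with 24.6% in nrpd1 and 13.7% in wild type, 10.7 points, 477 bp, 144 cytosines, 36768.5 bp, 2.19% near a CG gain, 1.25% near a CHH loss, 78.3% in the middle and 7.50% with another within 10 kb.

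Requiring 50% overlap before a region was excluded moved the share near a CG gain to 1.60%. With other windows, that share was 0.191% (sharing a base) and 2.94% (5 kb), the share near a CHH loss 0% (fixed, as listed CHH regions never overlap) and 14.9% (5 kb), the interior share 57.8% (middle 50%) and 91.5% (middle 80%), and the share with another CHH-only gain 12.7% (1 kb) and 64.4% (100 kb). Of 116 alternative values, these 53 lay outside the main value's interval or, for counts, beyond 1.5 times, and 63 did not, including all values without unplaced sequence or with CHH-only gains within 1 kb counted once. CHH-only gains kept lower widths, fewer cytosines, higher levels and fewer CG gains nearby than coinciding gains in each alternative where both had a value. Their order reversed in 3 of 10 alternatives for the interior share and in 1 of 9 for the difference. No paired analysis was possible because the files hold 1 mean per genotype, and leaving out replicates was not run for the same reason.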

Other observations

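In the 86 pairs of neighbouring CHH-only gains with at most 100 bp from one to the next, levels differed by a median of 1.23 points in nrpd1 and 1.44 points in wild type. In the 1507 pairs beyond 100 kb these medians were 2.65 points in nrpd1 and 2.54 points in wild type. The fewest bases between neighbours numbered 51, a step of 52 bp from the end of one to the start of the next. In 3 neighbouring pairs, 2 of them among the 86, the deposited means were identical in both genotypes although the regions hold different cytosines. On chromosome 2, 5590615 to 5590689 with 15 cytosines and 5590741 to 5590830 with 21 were both listed at 23.9% in nrpd1 and 7.22% in wild type. The other such pairs were on unplaced sequence. These values are not independent measurements, and how they arose is not given in the sources used here.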
